A study of Mus musculus with 32 samples.

Results

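Disease-associated microglia genes were examined as a list of 32 named members in RNA-seq tables of sorted glia and cultured astrocytes from mice. The members were fixed by name. They and the other gene lists below were chosen with earlier results of these data known. All 32 members were found in each of 4 count tables. These list 53700 genes for microglia, 17572 for the cultures and 55291 each for astrocytes and oligodendrocytes. All libraries came from TDP-43_Q331K mice, a model of amyotrophic lateral sclerosis that carries mutant human TDP-43, an RNA-binding protein. The labels do not name the promoter that drives the transgene, and mice without it were not analysed here, so effects of age and of the transgene cannot be told apart. Microglia were purified with an antibody to Cd11b from cortices at 10 months (4 libraries) and 3 months (3 libraries). Cultures of primary astrocytes, replated after 14 days, received 40 µM Omomyc for 48 hours (3 libraries) or vehicle (3 libraries). Omomyc, a small protein built from the dimerisation domain of MYC, keeps MYC and its partner MAX off DNA. Astrocytes were taken by their ACSA2 antigen at 3, 6 and 10 months (4, 5 and 2 libraries) and oligodendrocytes by O4 at 6 and 3 months (4 libraries each), both from cortices and spinal cords.

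Disease-associated microglia is the name for a state that microglia enter near plaques, dying neurons and damaged myelin. Its full form depends on the lipid-sensing receptor TREM2, which signals through the adaptor TYROBP, and it combines more lysosomal, lipid-handling and secreted factors with less of the homeostatic programme marked by P2ry12, Tmem119 and Cx3cr1. Many members are not restricted to microglia: the cathepsins, Cd9, Cd63 and Timp2 are made by most cells, and Axl, Fabp5 and Anxa5 are also made by astrocytes.

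Total counts were between 4145129 and 5612071 per microglia library, 30117025 and 37470972 per culture library, 6151583 and 20763190 per astrocyte library and 9752907 and 18598533 per oligodendrocyte library. Levels are given as CPM, counts scaled to a common library size after scaling with trimmed mean of M-values (TMM) factors. The microglia kit reads transcript 3′ ends and the other kits do not, so levels are not compared between tables unless the kit was shared. Nothing in the labels says that libraries of a group came from separate animals. Each p-value weighs a difference against the spread between these libraries, which is estimated with help from all genes tested. In microglia, 16 pan-myeloid markers summed to between 19998 and 26031 CPM at 10 months and between 15966 and 18151 CPM at 3 months, and 10 astrocyte markers to between 201 and 217 CPM against between 161 and 173 CPM. Myeloid markers thus made up far more of these libraries than astrocyte markers did. Choroid plexus markers, 6 in number, were uneven between libraries. They summed to 1285, 522, 2937 and 77.2 CPM at 10 months and to 287, 2490 and 1227 CPM at 3 months. Replicate 1 at 3 months stood apart: its 9 neutrophil markers summed to 2059 CPM, where the other libraries of that age had 663 and 370 CPM and the 10-month libraries between 441 and 738 CPM, and its 7 monocyte markers summed to 272 CPM, where those libraries had 86.0 and 79.3 CPM and the 10-month libraries between 57.6 and 82.4 CPM. Microglial results that move with this library are given with and without it.

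In cortical microglia the members were higher at 10 than at 3 months as a group. Of 31 members with enough counts to test, 15 were higher at 10 months and 0 were lower (edgeR quasi-likelihood test, Benjamini-Hochberg adjusted p under 0.05), against 1.94% of the 12320 genes tested that were higher and 1.27% that were lower. The members' median log2 fold change was 0.83, against 0.0047 over all genes tested, and 27 of 31 members had a positive value. The 2 groups of libraries did not overlap, with 10 months higher, for 18 members, against 8.64% of all genes. Ch25h, which makes 25-hydroxycholesterol, could not be tested: it had 0, 1, 0 and 2 counts at 10 months and 1, 0 and 0 at 3 months.

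**Figure D1:**
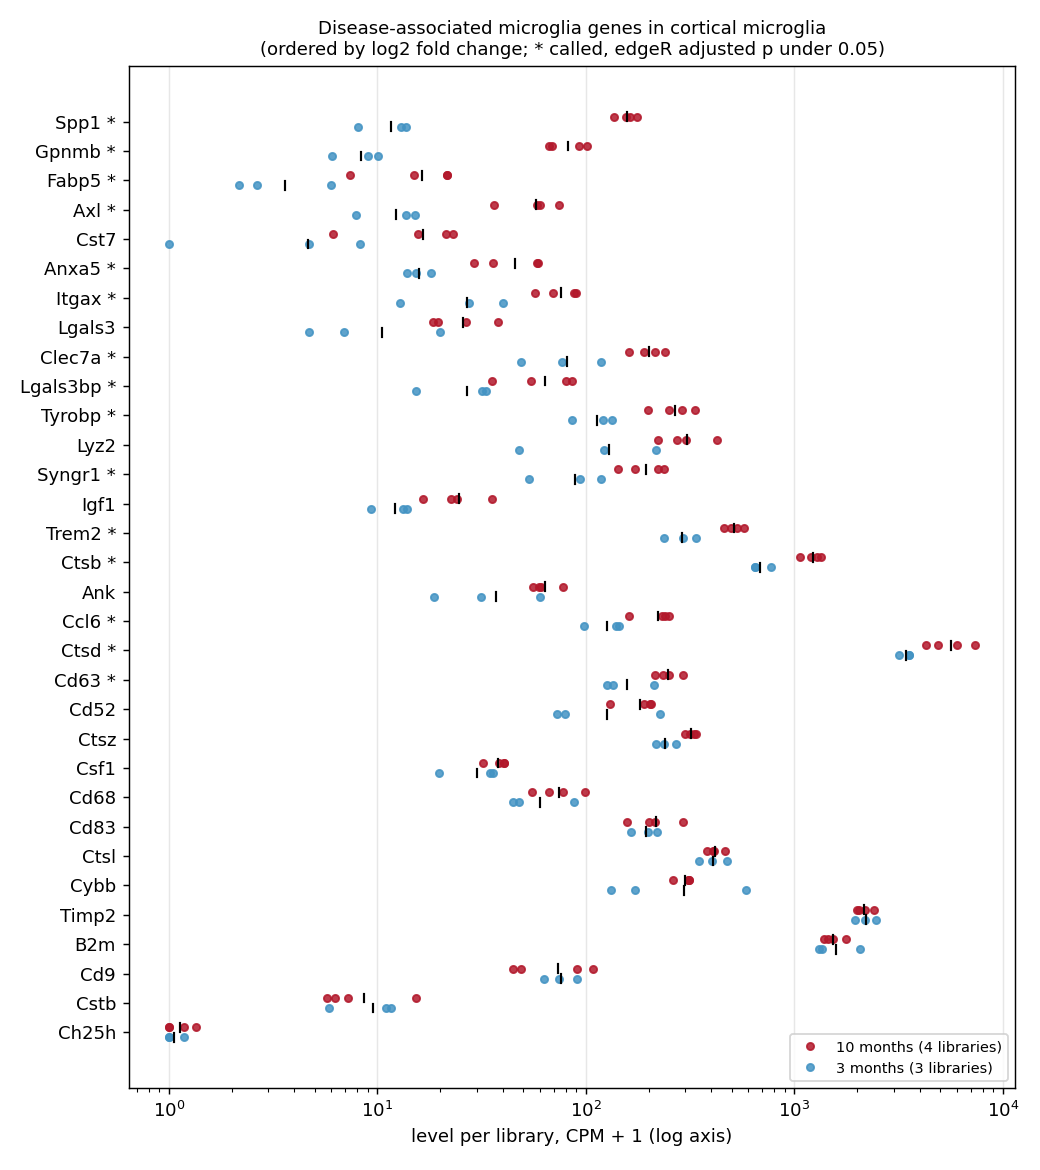
Level of each member in each microglia library, as CPM + 1 on a log axis; red points are the 4 libraries at 10 months, blue points the 3 at 3 months, and black ticks the group means. Spp1 and Gpnmb, at the top, show the widest gap between the ages, while Timp2, B2m, Ctsl and Cd9 overlap.

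All 5 receptors and adaptors were higher at 10 months. Trem2, the receptor that gates the state, had 532, 458, 570 and 495 CPM at 10 months and 236, 337 and 290 CPM at 3 months, so that every 10-month library stood above every 3-month library. Its log2 fold change was 0.84 ± 0.14 (SE, adjusted p = 0.00682). Tyrobp, its signalling adaptor, had 289, 198, 249 and 331.005 CPM against 120.4, 132 and 84.6 CPM, a log2 fold change of 1.25 ± 0.18 (adjusted p = 0.00378). Again no library of one age reached the other age. Axl, a receptor tyrosine kinase for the clearance of dying cells, had the largest change of this group, 2.31 ± 0.30 (adjusted p = 0.00145), with 73.5, 35.3, 57.6 and 59.1 CPM against 14.1, 12.7 and 6.93 CPM. Itgax, the integrin CD11c, had 87.1, 68.4, 56.3 and 88.7 CPM against 39.2, 11.8 and 26.3 CPM, and Clec7a, the beta-glucan receptor dectin-1, had 214, 161, 189 and 239 CPM against 117, 76.0 and 47.6 CPM. Both rose, by 1.53 ± 0.31 and 1.32 ± 0.23 on the log2 scale (adjusted p = 0.0163 and 0.0104).

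Among 6 secreted members, Spp1, Lgals3bp and Ccl6 were higher at 10 months. Spp1, which encodes osteopontin, showed the largest change of all members: 162, 154, 135 and 176 CPM at 10 months against 7.07, 12.7 and 12.02 CPM at 3 months, a 14.9-fold difference (log2 3.90 ± 0.22, adjusted p = 5.74e-08). The lowest 10-month library was far above the highest 3-month library. Lgals3bp, a secreted binding partner of galectins, rose by 1.29 ± 0.32 on the log2 scale (adjusted p = 0.038) and the chemokine Ccl6 by 0.80 ± 0.17 (adjusted p = 0.0216). Igf1, a growth factor, had 23.1, 15.5, 21.5 and 34.6 CPM against 12.3, 12.9 and 8.32 CPM; its groups did not overlap, but the test was not passed (1.08 ± 0.32, adjusted p = 0.0856). Lgals3, which encodes galectin-3, was at 25.5, 17.6, 18.5 and 37.0 CPM against 18.9, 5.88 and 3.70 CPM (1.35 ± 0.46, adjusted p = 0.123). The highest 3-month value was that of replicate 1. Csf1, the growth factor that microglia depend on, had a log2 fold change of 0.34 ± 0.24 (adjusted p = 0.531).

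Of the 5 membrane proteins of endosomes, lysosomes and tetraspan domains, 3 were higher. Gpnmb, a lysosomal glycoprotein of phagocytes laden with lipid, had 100.3, 65.7, 67.7 and 92.0 CPM at 10 months against 7.98, 9.05 and 5.08 CPM at 3 months, a 10.97-fold difference (log2 3.46 ± 0.26, adjusted p = 3.19e-06). Syngr1, a vesicle protein, rose by 1.14 ± 0.24 (adjusted p = 0.0188). Cd63, a tetraspanin of late endosomes, rose by 0.66 ± 0.17 (adjusted p = 0.0496), a call at the edge of the threshold. The macrosialin gene Cd68 (0.31 ± 0.25, adjusted p = 0.582) and the tetraspanin Cd9 (-0.05 ± 0.27, adjusted p = 0.96) did not pass; Cd9 had 48.0, 89.6, 43.8 and 108 CPM against 62.2, 89.1 and 73.0 CPM.

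Of the 8 proteases, lysozyme and inhibitors, 2 were higher. The aspartic protease Ctsd had 6039, 4286, 4863 and 7358 CPM at 10 months against 3556, 3544 and 3185 CPM at 3 months, and the cysteine protease Ctsb 1276, 1067, 1202 and 1339 CPM against 643, 771 and 645 CPM. Neither overlapped, and both rose, by 0.72 ± 0.15 (adjusted p = 0.0215) and 0.83 ± 0.12 (adjusted p = 0.0033). Ctsz, a carboxypeptidase, did not overlap either but did not pass (0.41 ± 0.12, adjusted p = 0.0777). Ctsl, also a lysosomal cysteine protease, had 379, 411, 404 and 463 CPM against 476, 347 and 401 CPM, a log2 fold change of 0.02 ± 0.13 (adjusted p = 0.961). Cst7, a cystatin of lysosomes and a common marker of the state, was low: 22.0, 5.12, 14.7 and 20.2 CPM against 0, 7.24 and 3.70 CPM. Its estimate of 2.11 ± 0.77 did not pass (adjusted p = 0.163). The lysozyme gene Lyz2, whose reads can be shared with its near-identical copy Lyz1, had 302, 221, 272 and 425 CPM against 217, 121 and 46.9 CPM (1.24 ± 0.52, adjusted p = 0.305). The inhibitors Cstb (-0.15 ± 0.49) and Timp2 (-0.03 ± 0.12) had adjusted p of 0.917 and 0.922.

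Of the 3 testable members in lipid and phosphate handling and the oxidase, Fabp5, an intracellular carrier of fatty acids, rose: 20.6, 6.40, 13.9 and 20.5 CPM against 1.63, 4.98 and 1.16 CPM (2.57 ± 0.56, adjusted p = 0.0226). Fabp5 rested on few reads, with 5 to 22 counts in the 3-month libraries. Ank, a pyrophosphate exporter, had a log2 fold change of 0.81 ± 0.30 (adjusted p = 0.165). Cybb, the catalytic subunit of the phagocyte NADPH oxidase, had 312, 262, 311 and 307 CPM against 584, 170 and 131 CPM (0.01 ± 0.54, adjusted p = 0.994); replicate 1 at 3 months was above all other libraries and the remaining pair at 3 months below them. Of the surface proteins and the annexin, Anxa5, which binds phosphatidylserine, rose by 1.59 ± 0.29 (57.3, 28.0, 34.8 and 58.1 CPM against 14.3, 12.9 and 17.1 CPM, adjusted p = 0.0104). The light chain of MHC class I, B2m, was at 1530, 1382, 1454 and 1766 CPM against 2072, 1354 and 1318 CPM (-0.04 ± 0.15, adjusted p = 0.918). Cd52 (0.53 ± 0.40) and Cd83 (0.15 ± 0.18) had adjusted p of 0.576 and 0.734.

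**Figure D2:**
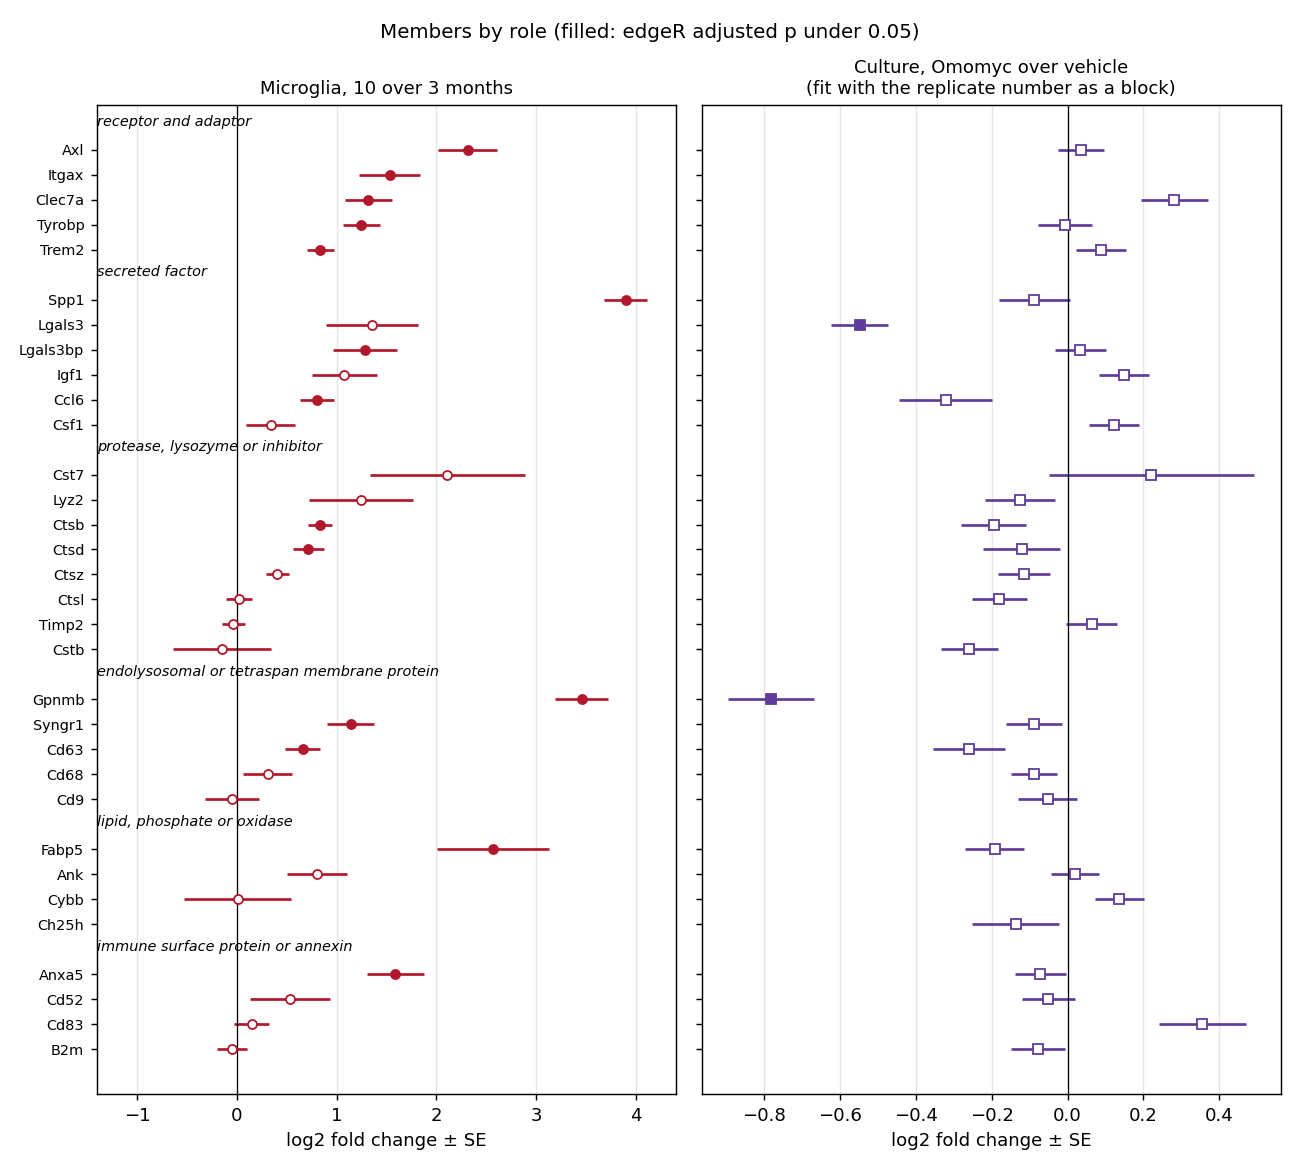
Log2 fold change ± SE of each member, grouped by role: microglia at 10 over 3 months (left, circles) and cultures with Omomyc over vehicle in the fit with the replicate number as a block (right, squares; the horizontal scales differ). Filled symbols passed an adjusted p of 0.05: 15 members in microglia, all above 0, and Lgals3 and Gpnmb in culture, both below 0.

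Leaving out replicate 1 at 3 months, the library with the high neutrophil and monocyte sums, gave 17 members higher. Without it Lgals3 (2.36, adjusted p = 0.0118), Cd52 (1.28, adjusted p = 0.00479), Lyz2 (1.86, adjusted p = 0.0262) and Cybb (0.99, adjusted p = 0.00479) passed, while Cd63 and Fabp5 did not. The count fell to 7 without replicate 1 at 10 months, and those 7, Spp1, Gpnmb, Axl, Trem2, Tyrobp, Clec7a and Ctsb, were the members called in each of the 7 fits that left out 1 library. The count was 8 without replicate 4 at 10 months and also 8 without replicate 3 at 3 months. Itgax, Ctsd and Syngr1 lost their calls in each of those 3 fits. Ccl6 lost its call there and without replicate 3 at 10 months, Lgals3bp also without replicate 2 at 3 months, and Fabp5 in those of Ccl6 and without replicate 1 at 3 months. Cd63 kept its call only without replicate 2 at 3 months, and Anxa5 lost its call only without replicate 1 at 10 months. Ank, not called with all libraries, passed without replicate 2 at 3 months and in no other of these fits. Over all genes the count was 51 without replicate 1 at 10 months, 91 without replicate 3 and 116 without replicate 4 of that age and 193 without replicate 3 at 3 months, against 395 with all libraries. It is not given here for the fit without replicate 1 at 3 months. The 17 members of that fit thus have no share over all genes beside them. In bulk RNA, fewer cells of a type and less RNA per cell cannot be told apart. Markers of several other cell types moved with the members. Of the 10 astrocyte markers, 8 were tested and 1 was higher, 7 had positive values and the median was 0.75, near the members' median of 0.83; none was at 0 in every 10-month library, while 1 was at 0 in every 3-month library. Of the 9 endothelial markers, 5 were tested and 1 was higher, with sums between 104 and 125 CPM at 10 months and between 69.3 and 79.3 CPM at 3 months. The 4 neuron markers tested all had positive values (median 1.41, 0 called), with sums of the 8 listed between 12.1 and 29.6 CPM at 10 months and between 2.72 and 11.3 CPM at 3 months. Of 2 markers of oligodendrocyte precursors tested 1 was higher, Cspg4 (4.29 ± 1.03, adjusted p = 0.0336), with sums of the 6 listed between 5.85 and 12.1 CPM against between 1.09 and 3.17 CPM. The 10 oligodendrocyte markers had a median of 0.57 with 0 called, and sums that overlapped, between 592 and 1150 CPM against between 633 and 903 CPM. The astrocyte count was 0 without replicate 1, 2 or 3 at 10 months or replicate 2 or 3 at 3 months, the precursor count 0 without replicate 1, 3 or 4 at 10 months or replicate 1 at 3 months, and the endothelial count 0 without replicate 3 at 10 months. None of the 8 neutrophil or 6 monocyte markers tested passed, while 2 neutrophil markers were lower without replicate 3 and 1 monocyte marker was lower without replicate 2 at 3 months. None of 10 border macrophage markers tested passed either, and 2 were higher without replicate 1 at 3 months. Their median was 0.55 and their sums were between 461 and 554 CPM at 10 months and between 345 and 545 CPM at 3 months. The 4 choroid plexus markers tested all had negative values (median -0.27, 0 called). The part of these cell types in the members' values was not tested.

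Of 21 further disease-associated genes tested, 7 were higher and 0 lower, with a median log2 fold change of 0.87; 3 passed without replicate 1, 3 or 4 at 10 months and 4 without replicate 3 at 3 months. Apoe, the main lipoprotein of the brain, had 3807, 2501, 3123 and 4287 CPM at 10 months and 1155, 752 and 772 CPM at 3 months (1.94 ± 0.19, adjusted p = 8.76e-05). Npc2, which moves cholesterol out of lysosomes, rose by 1.05 ± 0.14 (adjusted p = 0.00221), and the ferritin heavy chain Fth1 by 1.39 ± 0.23 (adjusted p = 0.00806). Of 20 homeostatic genes, 1 was higher, the receptor Csf1r (0.52 ± 0.12, adjusted p = 0.0257), and 0 were lower; their median was 0.06. Csf1r lost its call without replicate 1, 3 or 4 at 10 months or replicate 1 or 3 at 3 months, and DESeq2 called 4 of the homeostatic genes higher and 2 lower. P2ry12, the receptor for released ADP, had 641, 768, 719 and 897 CPM against 561, 827 and 796 CPM (0.06 ± 0.15, adjusted p = 0.896), so the groups overlapped. The homeostatic surface protein Tmem119 had 0.44 ± 0.15 (adjusted p = 0.132) and Selplg -0.51 ± 0.14 (adjusted p = 0.0657). Of 16 pan-myeloid genes 5 were higher, among them Ctss (0.82 ± 0.15, adjusted p = 0.0121) and Fcer1g (0.81 ± 0.17, adjusted p = 0.019); 0 passed without replicate 1 at 10 months or replicate 3 at 3 months, 1 without replicate 3 or 4 at 10 months and 3 without replicate 1 at 3 months. Downstream of TREM2, 1 of 12 genes tested was higher, the phospholipase Plcg2 (0.85 ± 0.21, adjusted p = 0.0392); the kinase Syk had 0.09 ± 0.20 (adjusted p = 0.868).

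Promoter windows of RefSeq genes (build GRCm38.p6, 250 bases before to 50 after an annotated start) were at hand for 26 of the 32 members, in 28 windows; Tyrobp, Ctsb, Fabp5, Cd52, Cstb and Cd83 had none. Motifs were searched on both strands. The E-box CACGTG, which MYC with MAX and the lysosomal regulators of the MiT/TFE family read, was in 7.14% of member windows, those of Ctsd and Ctsl, and in 7.15% of all 32851 windows. The longer M-box TCACGTGA, a subset of the E-box, was in 3.57% of member windows (Ctsd) and 0.974% of all. A PU.1-like GAGGAAGT was in 3.57% (Spp1) against 3.2%, an AP-1 site TGACTCA in 10.7% (Itgax, Gpnmb and Cd68) against 5.2%, and a cAMP response element TGACGTCA in 3.57% (Ch25h) against 1.79%. The 250 bases before the start are shown for the 2 most changed members of the microglia, Spp1 and Gpnmb, for the receptor Itgax, and for the cathepsins Ctsd, which rose, and Ctsl, which did not pass. They lie at chr5:104434861-104435110 (plus strand), chr6:49036268-49036517 (plus), chr7:128129300-128129549 (plus), chr7:142387828-142388077 (minus) and chr13:64370521-64370770 (minus), and each is written 5′ to 3′ on the gene's strand with motif matches in capitals.
Spp1: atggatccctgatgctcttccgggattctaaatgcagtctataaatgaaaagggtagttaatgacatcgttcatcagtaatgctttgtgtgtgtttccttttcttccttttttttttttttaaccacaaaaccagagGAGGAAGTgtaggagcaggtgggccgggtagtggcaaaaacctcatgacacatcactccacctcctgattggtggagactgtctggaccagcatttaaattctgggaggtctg
Gpnmb: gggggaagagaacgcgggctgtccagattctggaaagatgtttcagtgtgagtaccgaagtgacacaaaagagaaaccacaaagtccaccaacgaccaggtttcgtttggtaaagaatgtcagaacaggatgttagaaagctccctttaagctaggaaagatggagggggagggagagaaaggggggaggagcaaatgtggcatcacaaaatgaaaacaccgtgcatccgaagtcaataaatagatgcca
Itgax: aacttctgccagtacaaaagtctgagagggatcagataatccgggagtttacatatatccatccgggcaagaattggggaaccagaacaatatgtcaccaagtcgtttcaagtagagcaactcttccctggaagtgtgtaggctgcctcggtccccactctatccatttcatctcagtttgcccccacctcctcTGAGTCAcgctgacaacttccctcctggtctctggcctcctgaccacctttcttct
Ctsd: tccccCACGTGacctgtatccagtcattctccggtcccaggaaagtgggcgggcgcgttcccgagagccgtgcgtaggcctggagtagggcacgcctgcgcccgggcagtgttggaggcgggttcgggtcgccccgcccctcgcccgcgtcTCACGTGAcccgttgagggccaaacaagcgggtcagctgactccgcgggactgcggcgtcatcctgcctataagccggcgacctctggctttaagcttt
Ctsl: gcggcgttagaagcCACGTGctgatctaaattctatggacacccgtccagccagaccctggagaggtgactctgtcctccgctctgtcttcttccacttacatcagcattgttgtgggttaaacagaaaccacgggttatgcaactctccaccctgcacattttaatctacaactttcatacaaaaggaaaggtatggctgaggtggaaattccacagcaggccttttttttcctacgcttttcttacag
The capitals mark the PU.1-like match of Spp1 at position -113 from the start, the AP-1 match of Itgax at -56 (on the opposite strand, so read as TGAGTCA), the E-box of Ctsd at -245 with its M-box at -99, and the E-box of Ctsl at -236. The AP-1 match of Gpnmb lies 8 bases after the start and is not shown, so the Gpnmb stretch has no capitals. Positions count from the start of each RefSeq window, and where a gene had several windows, a window holding a match was shown. In the GENCODE annotation Ctsl spans chr13:64359337-64370890, so its whole stretch, with the E-box, lies inside the gene. Ctsd spans chr7:142375911-142388038 there, so its M-box lies inside the gene and its E-box before it. A match is a run of letters and not a bound site.

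The Omomyc comparison asked whether the miniprotein changed the transcriptome of cultured astrocytes. Microglial members were present in these cultures: Trem2 had 51.6, 60.8 and 126 CPM with Omomyc and 48.3, 62.5 and 109 CPM with vehicle. Replicate 3 was the highest library under both treatments. In the fit without a block, 0 of 31 members tested passed, against 0% of 16119 genes that were higher and 0.0186% that were lower. Of the 31 members, 1 had an unadjusted p under 0.05, and 1022 of all genes did; DESeq2 called 0 members and 90 genes. The members' median was -0.06. Itgax, at 0.242, 0.156 and 0.378 CPM against 0.0987, 0.282 and 0.477 CPM, was too low to test.

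Most members had more RNA in replicate 3 than in the other cultures, to very different degrees. Over the 30 members with at least 1 CPM, replicate 3 had a median of 1.54 times the mean of replicates 1 and 2 with Omomyc, in a range from 0.753 to 3.56, and of 1.31 times with vehicle, in a range from 0.857 to 2.60. Gpnmb in that replicate was 3.56 times the mean of replicates 1 and 2 with Omomyc and 2.40 times with vehicle, Spp1 2.64 and 1.92 times, Lyz2 2.31 and 1.76 times, Cybb 2.28 and 2.40 times, and Trem2 2.24 and 1.97 times. The median over 16 pan-myeloid markers was 1.81 and 1.63 times, and over 10 astrocyte markers 0.930 and 0.895 times. Members that the sorted astrocytes expressed differed among themselves in this ratio. Axl was at 1.15 and 1.12, Anxa5 at 1.01 and 0.987, Timp2 at 0.994 and 0.897, and Ank at 1.03 and 0.903, whereas Lgals3bp was at 1.98 and 1.68, Ctsd at 1.86 and 1.38, Ctsb at 1.61 and 1.28, B2m at 1.59 and 1.35 and Ctsz at 1.41 and 1.22. Cst7, which averaged under 1 CPM, was at 1.37 with Omomyc and 0.716 with vehicle. Border macrophage markers had medians of 2.63 and 2.21 times. Pan-myeloid sums were between 2042 and 4101 CPM with Omomyc and between 1782 and 3276 CPM with vehicle, and none of the 16 markers was at 0. The 8 border macrophage markers in this table summed to between 341 and 757 CPM with Omomyc and between 289 and 657 CPM with vehicle. Mural cell and fibroblast markers, 10 in number, summed to between 5396 and 7000 CPM with Omomyc and between 5820 and 8418 CPM with vehicle. The 10 astrocyte markers summed to between 7648 and 8556 CPM and between 7456 and 9172 CPM. The part of myeloid, mural or fibroblast cells in the members' values was not tested.

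**Figure D3:**
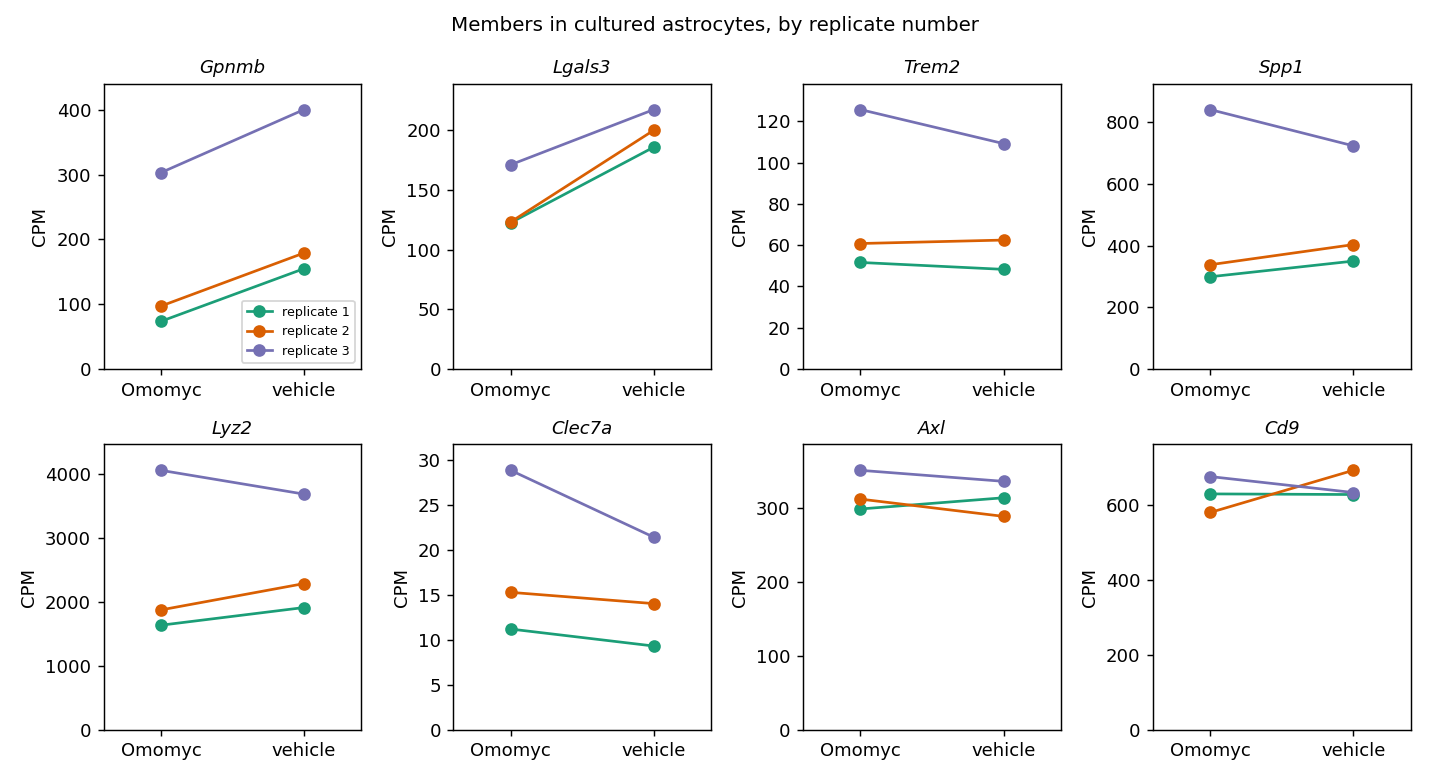
CPM of 8 members in each culture, Omomyc left and vehicle right, with lines joining cultures of the same replicate number. Replicate 3 is highest for Gpnmb, Trem2, Spp1, Lyz2 and Clec7a under both treatments, and the lines of Gpnmb and Lgals3 are lower on the Omomyc side in all 3 pairs.

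With the replicate number as a block, 2 members were lower with Omomyc and 0 higher, against 1.84% of all genes that were lower and 2.23% that were higher in that fit. Lgals3, galectin-3, had 122, 123 and 171 CPM with Omomyc and 186, 200.02 and 217 CPM with vehicle, and the groups did not overlap. Its log2 fold change was -0.55 ± 0.07 (adjusted p = 0.00842), and in the fit without the block -0.53 ± 0.14 (adjusted p = 0.597). Gpnmb had 73.4, 97.0 and 303 CPM with Omomyc and 155, 179 and 400.4 CPM with vehicle. The groups overlapped, but Gpnmb was lower in each of the 3 pairs, by -1.08, -0.88 and -0.40 on the log2 scale; the block fit gave -0.78 ± 0.11 (adjusted p = 0.0114) and the fit without it -0.63 ± 0.61 (adjusted p = 0.89). Fits with the block that left out 1 pair of cultures were chosen after seeing the data. Without the second pair Gpnmb had -0.71 and did not pass (adjusted p = 0.0718), and Clec7a did (0.36, adjusted p = 0.0333); without the first or the third pair Gpnmb passed at -0.64 and -0.98. Lgals3 passed in all 3 fits, between -0.65 and -0.47. Without the third pair 4 members passed, with Cd63 (-0.38, adjusted p = 0.00772) and Cstb (-0.32, adjusted p = 0.0431) added.

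The remaining 29 members tested did not pass in the block fit. Clec7a (0.28 ± 0.09, adjusted p = 0.126) and Cd83 (0.36 ± 0.11, adjusted p = 0.132), an activation marker of antigen-presenting cells, had positive values in all 3 pairs, while Cstb (-0.26 ± 0.07, adjusted p = 0.101) and Cd63 (-0.26 ± 0.09, adjusted p = 0.179) had negative ones. Igf1 and Cybb were also positive in all 3 pairs, and Ctsl, Fabp5 and Ccl6 negative. With 3 pairs a shared sign is not rare. Trem2 had 0.09 ± 0.07 and Spp1 -0.09 ± 0.09. Of the homeostatic genes in the block fit, 11 of 18 tested were higher and 0 lower, with a median of 0.31, against the members' median of -0.08. Values were positive for 14 of the 18. Counts without 1 pair of cultures are not given for this list. P2ry12 had 15.6, 16.0 and 24.5 CPM with Omomyc and 9.90, 8.63 and 12.7 CPM with vehicle (0.84 ± 0.09, adjusted p = 0.00364), and Tmem119 had 69.2, 90.9 and 119 CPM against 47.5, 61.3 and 72.0 CPM (0.62 ± 0.06, adjusted p = 0.00328). The Omomyc libraries of P2ry12 were all above those with vehicle, while those of Tmem119 overlapped. Of 16 pan-myeloid genes 6 were higher, among them Laptm5 (0.38 ± 0.06, adjusted p = 0.0152) and Irf8 (0.34 ± 0.06, adjusted p = 0.0203), and none lower; that count was 3 without the first pair, 9 without the second and 3 without the third. Of 22 further disease-associated genes 2 were higher and 2 lower. Mamdc2 (0.37 ± 0.06, adjusted p = 0.0174) and Abca1 (0.44 ± 0.10, adjusted p = 0.0488) were higher. Lpl, a lipoprotein lipase (-0.59 ± 0.06, adjusted p = 0.00328), and the chemokine Ccl3 (-0.82 ± 0.14, adjusted p = 0.0181) were lower. Without the block, 0 genes of these lists passed.

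In the astrocyte and oligodendrocyte sorts, members with broad expression had the highest levels. Oligodendrocyte markers reached sums close to those of astrocyte markers in the astrocyte libraries: 10 oligodendrocyte markers summed to between 24093 and 37783 CPM at 3 months, between 16398 and 25032 CPM at 6 months and between 17009 and 26224 CPM at 10 months, where 10 astrocyte markers summed to between 22333 and 33993 CPM, between 25353 and 31336 CPM and between 22656 and 25692 CPM. The part of oligodendrocytes in the members' levels in this sort was not tested. In the oligodendrocyte sort the astrocyte markers summed to between 482 and 689 CPM at 6 months and between 471 and 702 CPM at 3 months. A mean of at least 10 CPM was reached by 16 members in astrocytes at each of 3, 6 and 10 months and by 15 in 6-month and 13 in 3-month oligodendrocytes. Deposited TPM, which are scaled per transcript length, allow genes to be ordered within these sorts. In 3-month astrocytes the highest were Anxa5 at 382 TPM, Ctsd at 318, B2m at 301, Ctsb at 278, Ank at 270 and Cd9 at 248 TPM, and Trem2 was the lowest at 0.0261 TPM. In 3-month oligodendrocytes they were Anxa5 at 536 TPM, Ank at 403, Cd9 at 364, Ctsb at 261 and B2m at 244 TPM. Members typical of myeloid cells were low but not absent, and in oligodendrocytes 25 members averaged at least 1 CPM at each age and 0 were at 0 in every library. Lyz2 averaged 6.34 ± 2.29 CPM in 6-month and 7.24 ± 3.42 CPM in 3-month oligodendrocytes, and Cd68 4.68 ± 1.35 and 5.25 ± 1.77 CPM (SD, n = 4 each). Trem2 was at 0, 0, 0 and 0.156 CPM in 3-month astrocytes, at 0.15, 0, 0.186, 0.26 and 0.0844 CPM at 6 months and at 0 and 0.0928 CPM at 10 months. In both sorts Tyrobp, Itgax, Clec7a, Cst7, Ccl6, Cd52 and Cybb were below 3 CPM on average.

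**Figure D4:**
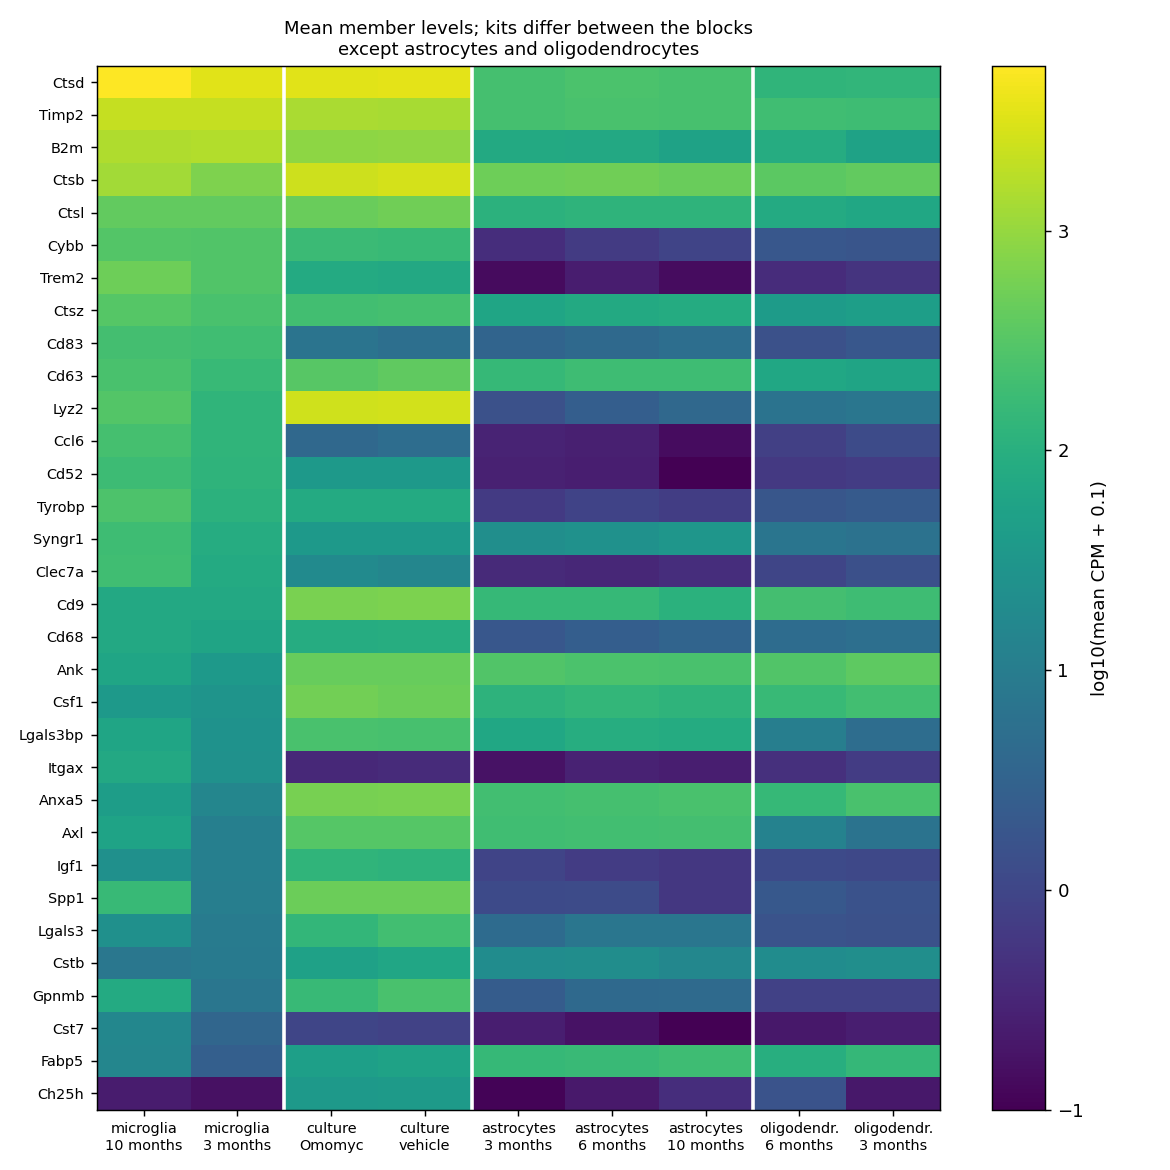
Mean member level per group as log10(CPM + 0.1), with members ordered by their level in 3-month microglia; colours are to be read along a row, and only the astrocyte and oligodendrocyte blocks share a kit. Trem2, Tyrobp, Clec7a, Ccl6, Cd52 and Cybb are dark in both sorts, whereas Ctsb, Cd9, Ank, Anxa5 and Fabp5 are bright.

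Between astrocytes and oligodendrocytes of 3 months, 8 of 27 members tested were higher in astrocytes, against 34.2% of 16363 genes, and 11 lower, against 30.8%, so that a call was common among all genes and the count says nothing particular about the members. Sort and table cannot be told apart here, since each sort is a table of its own. On the joint CPM scale of both tables, Axl averaged 175 ± 32.4 CPM in astrocytes and 7.21 ± 0.814 CPM in oligodendrocytes (SD, n = 4 each), a 24.1-fold difference (log2 4.59 ± 0.16, adjusted p = 5.86e-15). Lgals3bp followed at 3.41 ± 0.28 (adjusted p = 1.3e-08), Syngr1 at 1.48 ± 0.14 (adjusted p = 1.55e-08) and Cd63 at 1.01 ± 0.12 (adjusted p = 2.15e-07). Gpnmb (1.31 ± 0.51, adjusted p = 0.0304) lost its call without replicate 1 or 3 of the astrocytes or replicate 2 or 4 of the oligodendrocytes, and Lgals3 (1.25 ± 0.40, adjusted p = 0.0104) without replicate 3 of the astrocytes. Csf1 was lower in astrocytes, at 106 ± 7.19 joint CPM against 237 ± 15.1 joint CPM in oligodendrocytes (-1.16 ± 0.11, adjusted p = 6.2e-09), as were Ank (-0.73 ± 0.09), Cd9 (-0.70 ± 0.13) and Anxa5 (-0.64 ± 0.11). The myeloid members Lyz2 (-2.66 ± 0.38), Cybb (-2.76 ± 0.38), Tyrobp (-2.18 ± 0.40), Cd68, Ccl6 and Clec7a were lower too. Beside them, 14 of 15 pan-myeloid markers tested had negative values with a median of -2.03, at sums between 14.2 and 17.3 CPM in astrocytes and between 29.9 and 63.6 CPM in oligodendrocytes; their part was not tested.

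In astrocytes few members passed between ages. At 6 over 3 months 2 of 23 tested were higher, against 6.28% of 16189 genes, and 0 lower, against 8.29%. Lgals3 had 6.15, 6.09, 7.87, 8.84 and 7.93 CPM at 6 months and 2.91, 4.07, 7.06 and 3.74 CPM at 3 months (0.79 ± 0.22, adjusted p = 0.023); replicate 3 at 3 months overlapped with the older group. Lgals3bp had 106, 79.6, 81.9, 93.4 and 101 CPM against 73.3, 72.1, 78.5 and 47.1 CPM (0.46 ± 0.13, adjusted p = 0.0293), without overlap. The call of Lgals3 was lost without replicate 1 or 4 at 3 months and without replicate 3 or 4 at 6 months, and that of Lgals3bp without replicate 4 at 3 months and without replicate 1 or 4 at 6 months. At 10 over 3 months Lyz2 (1.41 ± 0.33, adjusted p = 0.00666) and Syngr1 (0.53 ± 0.16, adjusted p = 0.0291) were higher, against 11.5% of genes, and Cd9 (-0.47 ± 0.12, adjusted p = 0.0119) and B2m (-0.52 ± 0.17, adjusted p = 0.0362) lower, against 11.2%. Lyz2 was at 4.71 and 3.25 CPM at 10 months and 1.83, 0.679, 1.49 and 1.71 CPM at 3 months. The pan-myeloid sum was between 14.2 and 17.3 CPM at 3 months, between 19.8 and 25.6 CPM at 6 months and between 28.5 and 29.2 CPM at 10 months, with 4 of 9 markers tested higher at 10 months. In the same comparison 2 of 5 border macrophage markers were higher, as were 2 of 6 of oligodendrocyte precursors, while 5 of 10 oligodendrocyte markers (median -0.57), 3 of 9 endothelial markers (all 9 negative, median -0.83) and 4 of 6 choroid plexus markers (median -2.65) were lower. With 1 library left out, between 0 and 5 oligodendrocyte, 0 and 5 endothelial and 1 and 5 choroid plexus markers were lower, and between 1 and 2 border macrophage and 1 and 3 precursor markers higher; the count was 0 for oligodendrocyte markers without replicate 1 at 10 months and 0 for endothelial markers without replicate 2 at 10 months. At 6 over 3 months 5 of 10 oligodendrocyte markers were lower (median -0.54), 3 of 8 neuron, 2 of 9 endothelial and 2 of 6 choroid plexus markers too, and 1 pan-myeloid and 1 border macrophage marker higher. The part of these cell types in the members' values was not tested. With 2 libraries at 10 months, leaving out replicate 1 of that age ended the calls of Lyz2 and Syngr1, and leaving out replicate 2 those of Cd9, B2m and Syngr1; Syngr1 was also lost without replicate 3 or 4 at 3 months and B2m without replicate 2 or 3 at 3 months. The 6-month and 10-month comparisons share their 3-month libraries.

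In oligodendrocytes 2 of 26 members tested were higher at 6 than at 3 months, against 14.9% of 14050 genes, and 3 were lower, against 9.46%. Axl had 10.3, 10.2, 13.6 and 16.2 CPM at 6 months and 6.46, 6.51, 6.91 and 5.33 CPM at 3 months, without overlap (0.98 ± 0.17, adjusted p = 0.00299). Lgals3bp rose by 1.15 ± 0.34 (adjusted p = 0.0358), with 4.53, 13.5, 15.3 and 10.05 CPM against 6.05, 5.59, 4.55 and 3.32 CPM, where replicate 1 at 6 months lay within the younger group. Anxa5 had 138, 166, 145 and 152 CPM against 256, 217, 281 and 233 CPM (-0.71 ± 0.10, adjusted p = 0.000882), again without overlap, Ank was lower by -0.39 ± 0.09 (adjusted p = 0.0124) and Csf1 by -0.37 ± 0.11 (adjusted p = 0.0394). Beside them, all 9 endothelial markers were higher at 6 months, with sums between 245 and 640.1 CPM against between 62.8 and 81.4 CPM and a median log2 fold change of 2.73; 5 of 7 mural and fibroblast markers were higher, while the pan-myeloid sums overlapped at between 41.2 and 60.7 CPM against between 29.9 and 63.6 CPM. Of the neuron markers 5 of 8 were higher (median 1.02), with sums between 77.4 and 132 CPM at 6 months and between 44.3 and 63.8 CPM at 3 months. All 6 choroid plexus markers had positive values (median 2.61) and 1 was called, with sums between 295 and 3823 CPM against between 35.3 and 899 CPM. Of the 10 oligodendrocyte markers 6 were lower and 2 higher, and of 6 markers of oligodendrocyte precursors 2 were lower. With 1 library left out, the 9 endothelial calls held in number in all 8 fits, between 3 and 6 neuron and 0 and 5 choroid plexus markers were higher, and 3 border macrophage markers were lower without replicate 1 at 6 months. The part of these cell types in the members' values was not tested. Without replicate 1 at 6 months 11 members were called, with B2m (0.92, adjusted p = 0.0407), Cd9, Cd63, Ctsb, Ctsz and Fabp5 added. Each of the other 7 libraries, left out in turn, took the count to 3 or 4. Axl, Anxa5 and Ank kept their calls in all 8 fits, whereas Lgals3bp kept its call only without replicate 1 at 6 months, and Csf1 in 2 of 8 fits. Over all genes the number called also varied between these fits, so the 11 cannot be read as particular to the members.

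**Figure D5:**
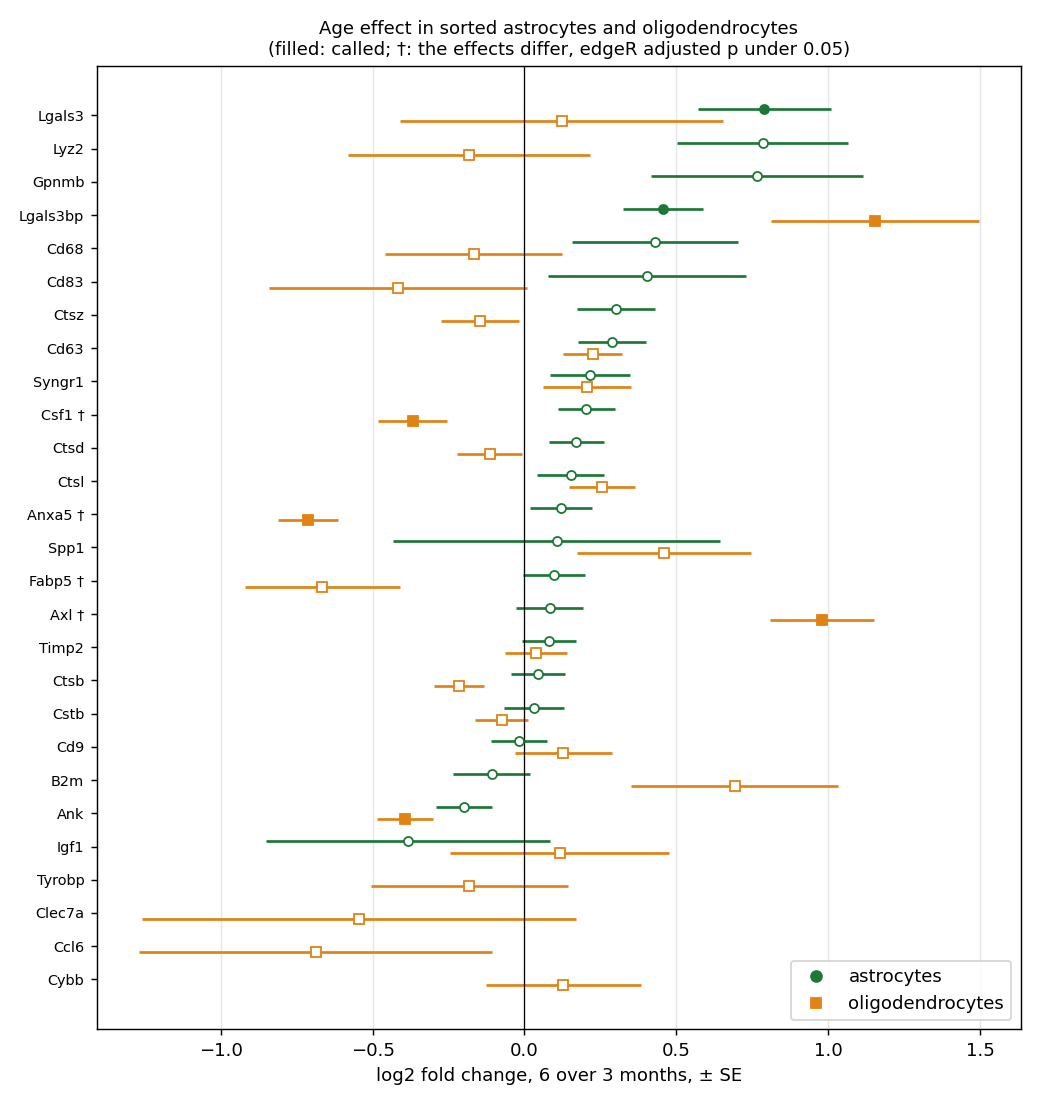
Log2 fold change ± SE at 6 over 3 months of each member tested, in astrocytes (green circles) and oligodendrocytes (orange squares); filled symbols passed an adjusted p of 0.05, and a dagger marks members whose age effects differ. Axl is near 0 in astrocytes and 0.98 in oligodendrocytes, and Anxa5 near 0 in astrocytes and -0.71 in oligodendrocytes.

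The difference between the 2 age effects was tested over both sorts. It passed for 4 of 27 members, 3 with the astrocyte effect higher, against 6.44% of 16363 genes, and 1 with it lower, against 9.97%. Anxa5 differed by 0.92 ± 0.15 (adjusted p = 0.000341), Csf1 by 0.66 ± 0.15 (adjusted p = 0.00397) and Fabp5 by 0.85 ± 0.27 (adjusted p = 0.0404), and Axl by -0.80 ± 0.20 (adjusted p = 0.0106). Fabp5 had 191, 147, 180, 172 and 129 CPM in 6-month and 152, 152, 153 and 155 CPM in 3-month astrocytes, while oligodendrocytes had 46.8, 126, 99.3 and 103 CPM at 6 months and 139, 167, 136 and 153 CPM at 3 months. Its low value was that of replicate 1 at 6 months, and without that library the difference was 0.63 (adjusted p = 0.00648) and 9 members were called. Over all genes the number called also varied with the library left out, so the 9 cannot be read as particular to the members. The call of Fabp5 was lost in 12 of 17 fits that left out 1 library, those without any 1 of the 4 astrocyte libraries at 3 months, replicates 1, 2, 3 or 4 of astrocytes at 6 months, replicates 1, 2 or 4 of oligodendrocytes at 3 months or replicate 3 of oligodendrocytes at 6 months. Anxa5, Csf1 and Axl kept theirs in all 17.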

How the data were processed

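RNA was measured in 32 libraries. The authors deposited raw counts per gene for each table and TPM (scaled for transcript length and library size) for the astrocyte and oligodendrocyte sorts. Per the labels' protocols, astrocyte and oligodendrocyte libraries used the CORALL mRNA V2 kit with molecular identifiers, microglia a QuantSeq 3′ kit and cultures a Watchmaker kit with Twist identifiers. Tools in the submitters' processing notes are UMI-tools 1.0.1, featureCounts 2.0.1, STAR 2.7.7a, DESeq2 and fastp; mm10, GRCm38.p6 and GRCm39 are listed there as builds, with no role. The sources used here do not give the build of each table or how reads mapping to several places were counted, so values of Lyz2 and Fabp5, which have near-identical copies, are uncertain.

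The deposited counts were tested with edgeR 4.0.16 (robust quasi-likelihood, TMM factors, filterByExpr with a minimum count of 10) in R 4.3.3, with Benjamini-Hochberg adjustment over all genes tested and a threshold of 0.05; DESeq2 1.42.0 was an alternative. The 3 astrocyte ages shared one fit, and both sorts shared one fit for the differences between them. The test was tried on simulated data. All 32 members are named or counted by role; of other lists, counts and up to 4 genes with the smallest p are given, and P2ry12, Tmem119, Selplg and Syk were named after their values were seen. The members and lists were chosen with earlier results of these data known.

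Culture replicate numbers pair Omomyc with vehicle: deviations from the group means correlated at 0.628, 0.432 and 0.682, each the best match. This comes from the data, since the labels do not state it. Depth limits low members, above all in microglia.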

Additional observations from a re-analysis of the deposited data

Results flagged for a closer look

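Of 125 groups of 4 to 10 libraries in which a member averaged at least 1 CPM, 10 held a library far from the others, and chance flags about 1 in 20 groups. Among microglia at 10 months, Cstb was high in replicate 4 at 14.4 CPM (next 6.22 CPM) and Cybb low in replicate 2 at 261.5 CPM (next 307 CPM). Among astrocytes at 6 months, Axl was low in replicate 2 at 185 CPM (next 210.0 CPM) and Cd63 high in replicate 1 at 235 CPM (next 183 CPM). Among astrocytes at 3 months, Axl was low in replicate 4 at 146 CPM (next 214 CPM) and Ank low in replicate 2 at 254 CPM (next 303 CPM). Replicate 1 of the 6-month oligodendrocytes stood apart for 3 members: Ctsb was high at 378 CPM (next 347 CPM), Lgals3 low at 0.486 CPM (next 1.79 CPM) and Ch25h high at 5.02 CPM (next 0.670 CPM). Ctsz was high in replicate 4 of the 3-month oligodendrocytes at 49.5 CPM (next 44.5 CPM).

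The change at 6 over 3 months differed between astrocytes and oligodendrocytes, by an interaction term in edgeR, for Axl (-0.80, astrocytes minus oligodendrocytes, log2), Csf1 (0.66), Fabp5 (0.85) and Anxa5 (0.92).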

How the results depend on the processing

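No member's called direction reversed. In microglia, all genes called were 730 without the filter, 710 with DESeq2 and 209 with the replicate number as a block, which drops replicate 4 at 10 months; members were 19, 18 and 11. The median of all genes was 0.13 without the filter and 0.11 with DESeq2, against 0.0047. In culture 0 genes passed with a 1 CPM filter, 90 with DESeq2 and 656 with the replicate block, with 2 members in the block; without pair 1, 2 or 3 the block gave 2, 2 and 4 members and 566, 1085 and 1130 genes. In astrocytes at 6 over 3 months, members were 5 without the filter and 4 with the block, and at 10 over 3 months the block gave 1 member and 1235 genes. In oligodendrocytes DESeq2 gave 8 members. Calls over all genes are not given for that fit or for those astrocyte fits at 6 over 3 months. Their member counts thus cannot be read as particular to the members. Outside the cultures most replicate numbers did not pair the libraries. The best matches were replicate 4 at 6 over 3 months in astrocytes (correlation 0.13) and oligodendrocytes (0.176), and replicate 2 between sorts (0.0684).

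Leaving out 1 library gave 7 to 17 members and 51 to 396 genes in microglia, 0 to 0 and 0 to 1 in culture, 0 to 3 and 1161 to 2637 in astrocytes at 6 months, 1 to 4 and 1052 to 3713 at 10 months, 3 to 11 and 2214 to 4925 in oligodendrocytes, 17 to 19 and 10082 to 10408 between sorts, and 3 to 9 and 2089 to 3508 for the difference in age effects. A lone 10-month astrocyte library is assumed to vary like the other groups.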
